A study of Homo sapiens with 20 samples.

Results

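Leukocyte adhesion molecules are the surface proteins by which white blood cells roll along, hold on to and pass through vessel walls and stroma. The group described here comprises 9 genes: PECAM1, SELPLG, CD44, ITGA4, ITGB1, ITGB7, ITGAL, ITGB2 and ICAM3. PECAM1 and SELPLG were chosen by the expression values of LP-1 cells, in which they were lower with a BET inhibitor than with its inactive enantiomer, and the other genes were added as the context of homing and adhesion. Each gene was read from probe sets that the platform's table assigns to that gene alone, and the brightest such probe set on average was kept. By this rule 8 of the 9 genes were measured, of 14232 genes with a probe set of their own. Both probe sets that list ITGA4 also list another gene, so ITGA4 is not analysed here. Each of the 8 measured genes had 1 probe set of its own.

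LP-1 is a cell line of multiple myeloma, which arises from plasma cells. Raji is a cell line of Burkitt lymphoma, which arises from B cells. Cells of each line received 500 nM of a BET inhibitor or 500 nM of its inactive enantiomer and were sampled after 4 or 8 h, and untreated cells were sampled at 0 h. BET proteins are bromodomain proteins that bind acetylated histones and recruit the transcription machinery, and the enantiomer is the mirror-image form that lacks the activity. The labels do not name the compound. The 10 groups, each of 2 biological replicates on exon arrays of RNA from bulk cultures, were LP-1 with BET inhibitor at 4 h, LP-1 with inactive enantiomer at 4 h, both again at 8 h, untreated LP-1, and the same groups of Raji.

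In the adhesion cascade, selectins on vessel walls catch passing leukocytes through glycosylated ligands such as PSGL-1, the product of SELPLG. Integrins, which are pairs of an alpha and a beta chain, then arrest the cell. The ITGA4 chain pairs with that of ITGB1 to bind VCAM1 and fibronectin, or with that of ITGB7 to bind MADCAM1 in gut vessels. The chains of ITGAL and ITGB2 form LFA-1, which binds ICAM1, ICAM2 and ICAM3. CD44 is the main receptor for hyaluronan, and PECAM1, or CD31, is an immunoglobulin-family molecule that binds copies of itself and takes part in passage between endothelial cells. Myeloma cells use several of these molecules to lodge in bone marrow.

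The values are log2 expression after RMA, the array summary that corrects background, normalizes and combines probes, so 1 unit is a doubling of signal. They compare samples for the same gene and not 1 gene with another. Array medians lay between 5.13 and 5.39, and the 2 arrays of a group correlated at Pearson's r of 0.973 to 0.989 over all probe sets. With no counts behind them, the values are as precise as 2 arrays per group allow. As a check of the treatment, MYC was lower and HEXIM1 higher with the BET inhibitor than with the inactive enantiomer in each line at each time (2.64- to 4.94-fold and 2.06- to 3.82-fold). The 8 plasma cell markers matched the labels of the untreated lines except CD38: 7 were lower in Raji than in LP-1, and 7 of 7 measured B cell markers were higher in Raji. In bulk cultures, fewer cells that carry a transcript and less of it per cell cannot be told apart. Differences below are given with their standard error from a limma fit over all arrays (n = 2 arrays per group), and called where the p adjusted over 22011 probe sets was under 0.05. The p-values set each difference against the spread between 2 replicates, pooled over the 10 groups and drawn toward that of all probe sets.

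Promoter sequence was at hand for 4 of the 8 measured genes, from the RefSeq table of build GRCh38.p14. Those of CD44 and ITGB7 are shown, because these are the genes with a promoter window whose levels differed most between the lines. Each run is the 250 bases before the annotated start, 5′ to 3′ on the gene's strand. Capitals mark the match to GGAAGT, the core that ETS-family factors bind, which here lies on the opposite strand. The CD44 window is chr11:35138921-35139170 (plus strand) and the ITGB7 window is chr12:53207252-53207501 (minus strand).
CD44: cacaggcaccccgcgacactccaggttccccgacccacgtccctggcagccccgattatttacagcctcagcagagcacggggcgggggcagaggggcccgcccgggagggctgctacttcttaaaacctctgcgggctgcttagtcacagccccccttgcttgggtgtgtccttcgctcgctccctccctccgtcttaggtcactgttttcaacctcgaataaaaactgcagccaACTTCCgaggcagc
ITGB7: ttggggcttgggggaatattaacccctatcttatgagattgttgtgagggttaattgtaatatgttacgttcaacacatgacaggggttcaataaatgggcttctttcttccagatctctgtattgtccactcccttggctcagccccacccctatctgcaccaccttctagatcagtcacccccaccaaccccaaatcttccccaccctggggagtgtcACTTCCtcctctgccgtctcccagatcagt

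The match began 14 bases before the start in CD44 and 30 bases before it in ITGB7. On both strands, GGAAGT occurred in 19.5% of the 35116 promoter windows of this length in the table. It was also found in both windows of ITGB1, where it began 241 and 212 bases before the start, and in none of the 3 windows of ICAM3. The other 3 motifs searched on both strands were found in none of these windows, so no match overlapped another. They were the E-box of MYC, CACGTG, which 6.34% of windows hold, the AP-1 site TGANTCA, in 6.57%, and the octamer ATGCAAAT, in 1.63%. A match is a description of the letters and not a binding site.

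In LP-1, PECAM1 and SELPLG were both lower with the BET inhibitor than with the inactive enantiomer at 8 h, and SELPLG also at 4 h. These are the values that chose the genes, so they are described without a test. PECAM1 stood at 5.20 and 4.80 with the BET inhibitor at 8 h, against 7.30 and 7.57 with the inactive enantiomer. That is a difference of -2.44 ± 0.27, or 5.41-fold. The arrays of the 2 groups were far apart and did not overlap.

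At 4 h PECAM1 stood at 7.12 and 7.83 with the BET inhibitor, against 7.87 and 7.78 with the inactive enantiomer. The second BET inhibitor array lay among the inactive enantiomer arrays, so the groups overlapped. The difference of -0.35 ± 0.27 came from the first BET inhibitor array alone: without it the difference was 0.0006, and without the second array it was -0.70. That first array also had a 75th percentile over all probe sets of 6.80, against 7.03 on its replicate, and the part of this in the PECAM1 value was not tested.

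SELPLG stood at 7.64 and 7.81 with the BET inhibitor at 4 h, against 8.56 and 8.68 with the inactive enantiomer, a difference of -0.90 ± 0.14 (1.86-fold). By 8 h the values were 6.62 and 6.61, against 8.18 and 8.34, a difference of -1.65 ± 0.14 (3.13-fold). No BET inhibitor array reached the level of any inactive enantiomer array at either time. SELPLG thus stood clear of its control at both times, and PECAM1 only at 8 h.

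The mean of the 8 plasma cell markers on the same arrays was 7.99 to 8.39 with the BET inhibitor, against 8.54 to 8.75 with the inactive enantiomer. In the limma test 1 of the 8 was lower at 4 h (TNFRSF17) and 2 at 8 h (TNFRSF17 and SLAMF7). Of the 7 B cell markers, whose mean was 4.66 to 5.13 with the BET inhibitor, against 5.13 to 5.45 with the inactive enantiomer, 1 was lower at both times. This was CIITA, the activator of MHC class II genes (-1.01 ± 0.10 at 4 h and -1.35 ± 0.10 at 8 h). The part of these shifts in the values of PECAM1 and SELPLG was not tested. PECAM1 is also a marker of endothelial cells, and the mean of the 8 other endothelial markers was 3.68 to 3.95 with the BET inhibitor, against 3.66 to 3.90 with the inactive enantiomer. Of 34 markers of T and NK, myeloid, endothelial, platelet, and epithelial or fibroblast cells, limma called 0 in LP-1 at either time (1 at 4 h and 4 at 8 h had an unadjusted p under 0.05). In Raji it called 0 at either time, with 1 at each time at that unadjusted p.

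**Figure D1:**
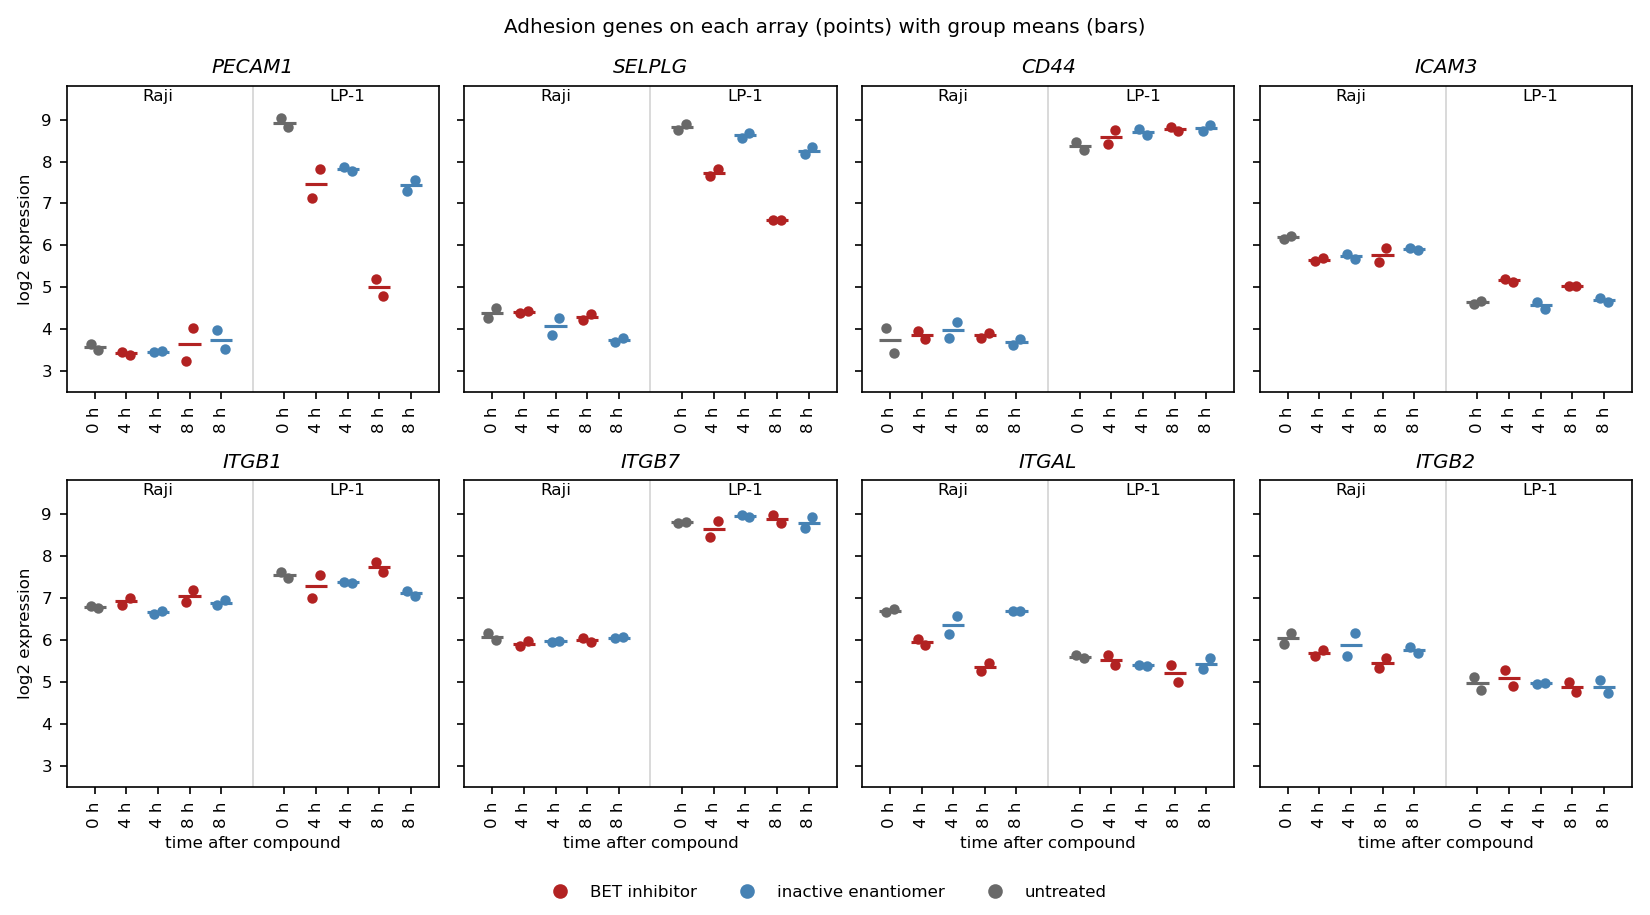
Log2 expression of the 8 measured adhesion genes on each of 20 arrays (points) with the group mean (bars), against the hours after the compound, with Raji left and LP-1 right in each panel. PECAM1 and SELPLG in LP-1 reach their lowest levels with the BET inhibitor at 8 h, CD44 and ITGB7 keep apart by line, and ITGAL in Raji is lowest with the BET inhibitor at 8 h.

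At 8 h the other 6 genes differed less between the compounds in LP-1 than PECAM1 and SELPLG, which these values chose. At 4 h ICAM3 differed by more than PECAM1. ICAM3 stood at 5.20 and 5.14 with the BET inhibitor at 4 h, against 4.65 and 4.49 with the inactive enantiomer, a difference of 0.60 ± 0.12 (1.52-fold). The values at 8 h were 5.03 and 5.03, against 4.74 and 4.64, a difference of 0.34 ± 0.12. Its BET inhibitor arrays were thus above those of the inactive enantiomer at both times, the opposite order to that of SELPLG.

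ITGB1 was close between the compounds at 4 h (-0.09 ± 0.17). At 8 h it stood at 7.86 and 7.61 with the BET inhibitor, against 7.17 and 7.05 with the inactive enantiomer. That is a difference of 0.62 ± 0.17 (1.54-fold) with no overlap. Untreated LP-1 cells stood at 7.63 and 7.47. The inactive enantiomer arrays of ITGB1 at 8 h thus lay below the 0 h level, and the BET inhibitor arrays overlapped it. ITGB7, the other beta chain that pairs with the ITGA4 product, differed by -0.30 ± 0.14 at 4 h and by 0.09 ± 0.14 at 8 h. Its value at 4 h was -0.11 without the first BET inhibitor array, -0.50 without the second and -0.14 with quantile normalization. CD44 differed by -0.12 ± 0.19 and -0.03 ± 0.19. The chains of LFA-1 were near their controls as well, ITGAL at 0.13 ± 0.17 and -0.23 ± 0.17 and ITGB2 at 0.13 ± 0.20 and 0.00 ± 0.20. As background, 2.28% of all probe sets were called at 4 h and 5.73% at 8 h in these comparisons, which the choice of genes used.

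The same comparison in Raji was not the one that chose PECAM1 and SELPLG, although the 9 genes were chosen with earlier results of these data known. There the alpha chain of LFA-1 was the member that fell. ITGAL stood at 5.25 and 5.45 with the BET inhibitor at 8 h, against 6.69 and 6.68 with the inactive enantiomer. The fall was 1.33 ± 0.17 on the log2 scale (2.52-fold, limma adjusted p = 0.00267, interval -1.70 to -0.97), and both BET inhibitor arrays were below both others. The call held in all 10 other settings tried, over which the difference ranged from -1.43 to -1.24 (adjusted p 0.00111 to 0.0350).

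The mean levels of the B cell and the plasma cell markers were lower with the BET inhibitor in Raji too. Raji arises from B cells, and 7 of the 8 plasma cell markers were lower in untreated Raji than in untreated LP-1. The mean of the 7 B cell markers over both times was 7.69 to 7.89 with the BET inhibitor, against 8.08 to 8.40 with the inactive enantiomer. Limma called 1 of the 7 lower at 4 h (CIITA) and 2 at 8 h (CIITA, at -0.62 ± 0.10, and PAX5, at -0.80 ± 0.17). Of the 8 plasma cell markers, with a mean of 5.58 to 5.83 against 6.06 to 6.31, it called 2 lower at 4 h (TNFRSF17 and PRDM1) and 3 at 8 h (the same genes and SLAMF7). The part of these shifts in the values of ITGAL, and of the other genes that fell in Raji, was not tested.

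At 4 h ITGAL stood at 6.03 and 5.88 with the BET inhibitor, against 6.14 and 6.57 with the inactive enantiomer. All BET inhibitor arrays were again the lower ones, but the difference of -0.40 ± 0.17 did not pass (limma adjusted p = 0.304). The difference between the times, 8 h minus 4 h, was -0.94 ± 0.24 and did not pass either (adjusted p = 0.447, unadjusted p = 0.00177). In this comparison of times limma called 0% of all probe sets, with 1257 of 22011 at an unadjusted p under 0.05. Against untreated Raji cells, which stood at 6.65 and 6.74, the BET inhibitor arrays averaged 0.74 lower at 4 h and 2.54-fold lower at 8 h.

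ITGB2, whose product pairs with that of ITGAL, stood at 5.33 and 5.57 with the BET inhibitor at 8 h, against 5.82 and 5.70 with the inactive enantiomer. Both BET inhibitor arrays were lower, but the difference of -0.31 ± 0.20 did not pass (limma adjusted p = 0.612, interval -0.75 to 0.13). At 4 h it was -0.20 ± 0.20 with overlapping arrays. ICAM3, a ligand of LFA-1, differed by -0.08 ± 0.12 and -0.13 ± 0.12, with intervals of -0.34 to 0.18 and -0.39 to 0.14.

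SELPLG in Raji was on the higher side with the BET inhibitor. It stood at 4.39 and 4.43 at 4 h, against 3.87 and 4.26 with the inactive enantiomer, and at 4.22 and 4.37 at 8 h, against 3.70 and 3.80. The BET inhibitor arrays were above the inactive enantiomer arrays at both times. The differences of 0.34 ± 0.14 and 0.54 ± 0.14 did not pass (limma adjusted p = 0.292 and 0.0782), although the value at 8 h passed with quantile normalization (0.58, adjusted p = 0.0336) and with the replicate number as a block (0.54, adjusted p = 0.0323).

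These levels of SELPLG were low on the array: its percentile among all probe sets was 24.4 to 36.5 in Raji and 69.6 to 89.9 in LP-1. The percentile of PECAM1 was 18.3 to 29.5 in Raji and 40.4 to 91.2 in LP-1. No test against background was possible with these values, so whether either transcript was detected in Raji is not known.

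PECAM1 in Raji differed by -0.03 ± 0.27 at 4 h and by -0.12 ± 0.27 at 8 h, with intervals of -0.62 to 0.55 and -0.70 to 0.47. CD44 differed by -0.12 ± 0.19 and 0.15 ± 0.19, ITGB1 by 0.27 ± 0.17 and 0.16 ± 0.17, and ITGB7 by -0.06 ± 0.14 at both times. The interval for ITGB7 at 8 h was -0.36 to 0.25, so a change as large as that of ITGAL lies outside it. In all, limma called 0 of the 8 genes at 4 h, where 2 had an unadjusted p under 0.05 and 1.78% of all probe sets were called. The count at 8 h was 1 of 8, lower, where 1.88% of all probe sets were called and 1.05% were called lower. The median difference of the 8 genes was -0.07 and -0.09, and that of all probe sets 0.01 and 0.00.

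**Figure D2:**
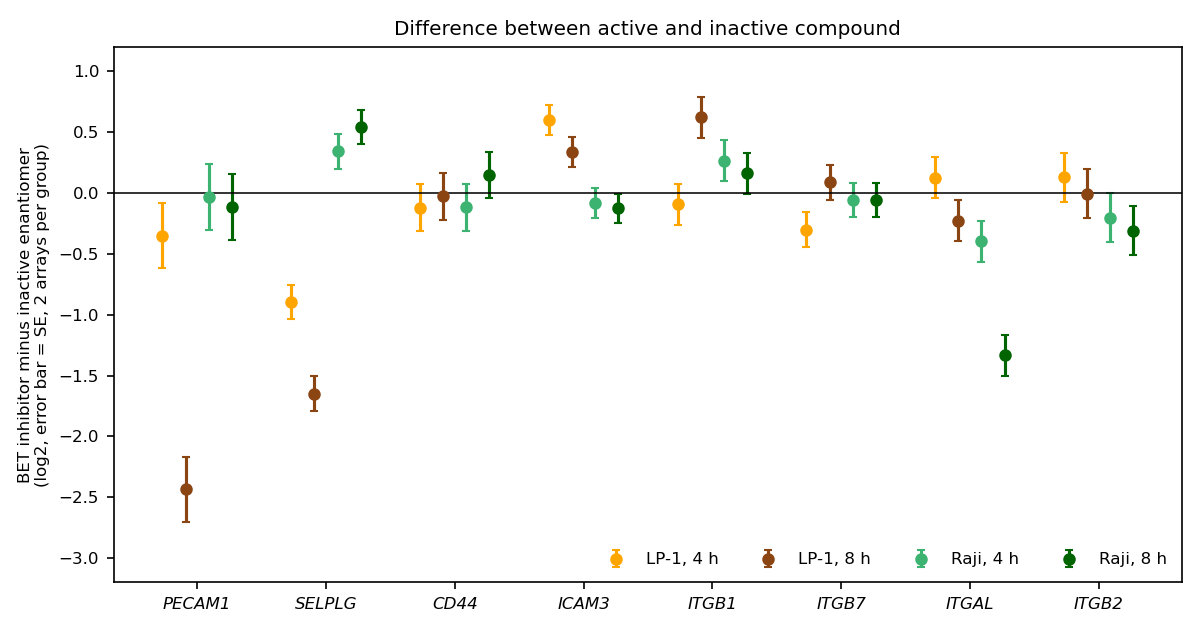
Log2 difference of BET inhibitor minus inactive enantiomer for each of the 8 genes (points) with its standard error (bars, 2 arrays per group) in both lines at 4 and 8 h. PECAM1 at 8 h and SELPLG at both times lie far below 0 in LP-1, and ITGAL at 8 h in Raji. The LP-1 points chose PECAM1 and SELPLG, and the differences between the lines were not tested.

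The inactive enantiomer was next set against untreated cells, which asks whether the control itself had moved. These comparisons join the compound with the hours in culture, since no untreated cells were sampled at 4 or 8 h, and in LP-1 they share the inactive enantiomer arrays with the values that chose the genes. The LP-1 values of the 8 genes are therefore described without a test. PECAM1 in LP-1 lay below the untreated cells at both times. It stood at 7.30 and 7.57 with the inactive enantiomer at 8 h, against 9.03 and 8.82 in untreated cells, a difference of -1.49 ± 0.27 (2.81-fold). Over the 10 other settings tried it ranged from -1.63 to -1.32. Centring each array on its median moved the median of all probe sets by 0.11 here. At 4 h the difference of PECAM1 was -1.10 ± 0.27. In all 4 arrays of the inactive enantiomer PECAM1 was below both untreated arrays. Against untreated cells, PECAM1 with the BET inhibitor was 2.74-fold lower at 4 h and 15.2-fold lower at 8 h.

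SELPLG in LP-1 with the inactive enantiomer differed from untreated cells, at 8.74 and 8.89, by -0.19 ± 0.14 at 4 h and by -0.55 ± 0.14 at 8 h. With the BET inhibitor at 8 h it was 4.60-fold lower than in untreated cells. The other 6 genes differed at 8 h by -0.44 ± 0.17 (ITGB1) to 0.43 ± 0.19 (CD44), and the arrays of these genes other than ITGB1 and CD44 overlapped. As background, limma called 0.0136% of all probe sets at 4 h and 0.504% at 8 h in these comparisons.

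In Raji limma called 0 of the 8 genes between inactive enantiomer and untreated cells at each time, as it did 0% of all probe sets, and 2 of the 8 had an unadjusted p under 0.05 each time. The largest of these differences were those of SELPLG at 8 h (-0.63 ± 0.14, adjusted p = 0.721) and ICAM3 at 4 h (-0.45 ± 0.12, adjusted p = 0.428). SELPLG with the BET inhibitor in Raji stayed near the untreated level, 1.02-fold above it at 4 h and 1.06-fold below it at 8 h. In Raji at 8 h it was thus the inactive enantiomer arrays of SELPLG, and not the BET inhibitor arrays, that lay away from the 0 h level.

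The untreated lines show which line had more of each transcript, and not whether a line carries the protein. PECAM1 and SELPLG were chosen for being lower with the BET inhibitor in LP-1, which needs a measurable level in that line, so their levels are described without a test. Limma called all 6 of the other measured genes, 3 lower and 3 higher in Raji than in LP-1. Of all probe sets, 24.3% were called, 17.5% lower and 6.79% higher in Raji. Centring or quantile normalization moved the median of all probe sets in this comparison by 0.13 and 0.10, and no call of the 6 genes was lost in any of the 9 other settings tried.

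PECAM1 stood at 3.65 and 3.51 in untreated Raji, against 9.03 and 8.82 in untreated LP-1, a difference of -5.35 ± 0.27 (40.7-fold). SELPLG stood at 4.27 and 4.50, against 8.74 and 8.89, a difference of -4.43 ± 0.14 (21.6-fold). CD44 stood at 4.03 and 3.45, against 8.48 and 8.27, a difference of -4.63 ± 0.19 (24.8-fold, limma adjusted p = 1.76e-09). The homophilic adhesion molecule, the selectin ligand and the hyaluronan receptor were thus all far lower in Raji, with no overlap between arrays.

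The beta chains split in size. ITGB7 stood at 6.16 and 6.00 in Raji, against 8.79 and 8.82 in LP-1, a difference of -2.72 ± 0.14 (6.60-fold, limma adjusted p = 1.17e-08). ITGB1 stood at 6.81 and 6.77, against 7.63 and 7.47, a difference of -0.76 ± 0.17 (1.69-fold, adjusted p = 0.00409), which was -0.46 with quantile normalization (adjusted p = 0.0418).

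The members higher in Raji were the LFA-1 chains and their ligand. ITGAL stood at 6.65 and 6.74 in Raji, against 5.64 and 5.56 in LP-1, a difference of 1.10 ± 0.17 (2.14-fold, limma adjusted p = 0.000258). ITGB2 stood at 5.91 and 6.15, against 5.12 and 4.80, a difference of 1.07 ± 0.20 (2.10-fold, adjusted p = 0.00135). ICAM3 stood at 6.16 and 6.21, against 4.61 and 4.67, a difference of 1.55 ± 0.12 (2.92-fold, adjusted p = 5.74e-07).

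Over all 10 groups, the order of the levels followed the line for 6 of the 8 genes with no array out of place. For CD44 the Raji arrays ran from 3.45 to 4.17 and the LP-1 arrays from 8.27 to 8.88. All neighbouring group means within a line overlapped. ITGB7 ran from 5.84 to 6.16 in Raji and from 8.45 to 8.98 in LP-1, again with overlapping neighbours within each line. For PECAM1 the highest Raji array, 4.03, was still below the lowest LP-1 array, 4.80 with the BET inhibitor at 8 h. For SELPLG the highest Raji array was 4.50 and the lowest LP-1 array 6.61.

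In PECAM1 the order in LP-1 was untreated, inactive enantiomer at 4 h, BET inhibitor at 4 h, inactive enantiomer at 8 h and BET inhibitor at 8 h. The middle groups overlapped their neighbours, while the highest and the lowest stood apart. In SELPLG every LP-1 group stood apart from the next, in the order untreated, inactive enantiomer at 4 h, inactive enantiomer at 8 h, BET inhibitor at 4 h and BET inhibitor at 8 h. The smallest of these gaps, between untreated cells and the inactive enantiomer at 4 h, was 0.19.

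The 2 genes whose arrays mixed between the lines were ITGAL and ITGB1. ITGAL with the BET inhibitor at 8 h in Raji averaged 5.35, within the LP-1 range of 5.01 to 5.64, whereas every other Raji group was above all LP-1 arrays. ITGB1 ranged from 6.63 to 7.19 in Raji and from 7.00 to 7.86 in LP-1. ITGB2 kept its order by line by a narrow margin, at 5.33 to 6.15 in Raji and 4.73 to 5.29 in LP-1. ICAM3 ran from 5.61 to 6.21 in Raji and from 4.49 to 5.20 in LP-1.

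By the measure of likeness used, the root mean square difference over the 10 LP-1 arrays after each gene was centred on its own mean, the genes nearest to SELPLG among 14424 probe sets were SLAMF7 (0.11), ZHX2 (0.17), SLC16A9 (0.17) and TRAT1 (0.18). Those nearest to PECAM1 were MLKL (0.50), LPAR4 (0.54), EDNRB (0.54) and TNFRSF17 (0.55). The measure uses the same LP-1 arrays that chose the members, and the arrays share the treatment, so these values are a description. SLAMF7, the nearest to SELPLG, stood at 5.68 and 5.49 with the BET inhibitor at 8 h, against 7.15 and 7.22 with the inactive enantiomer.

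SLAMF7 differed by -0.70 ± 0.18 at 4 h and by -1.60 ± 0.18 at 8 h, beside -0.90 and -1.65 for SELPLG. TNFRSF17 differed by -1.40 ± 0.32 and -2.37 ± 0.32, beside -0.35 and -2.44 for PECAM1. All 4 genes nearest to PECAM1 differed by less than PECAM1 did at 8 h, between -2.37 and -1.57. SLAMF7 and TNFRSF17 are both on the plasma cell marker list.

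**Figure D3:**
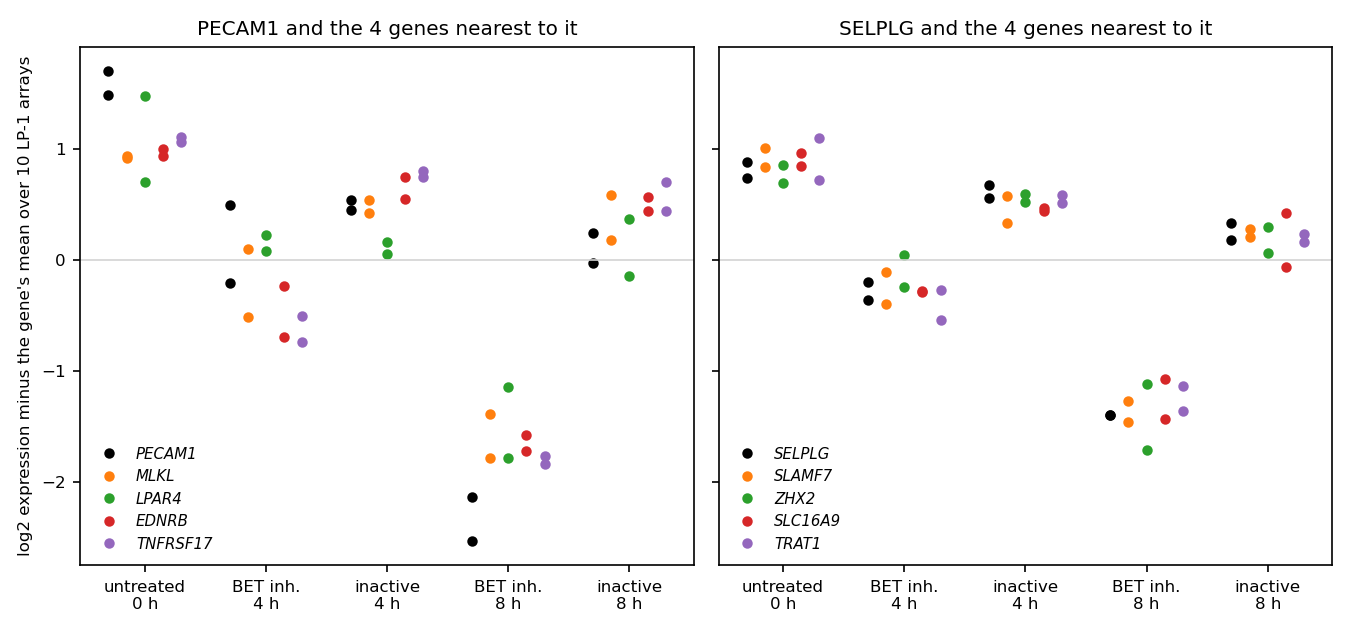
Log2 expression minus the gene's own mean over 10 LP-1 arrays (vertical axis) in the 5 LP-1 groups, for PECAM1 (left) and SELPLG (right) and the 4 genes nearest to each; each point is 1 array. SELPLG and its neighbours, at distances of 0.11 to 0.18, lie close together in every group, and those of PECAM1, at 0.50 to 0.55, spread more widely.

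Around the 8 genes, 140 of 159 other adhesion and homing genes were measured, in 9 lists. With the BET inhibitor against the inactive enantiomer in LP-1, limma called 5 of them at 4 h, 1 higher and 4 lower, or 3.57%. Of all probe sets it called 2.28%, with 0.377% higher and 1.9% lower. It called 7 in LP-1 at 8 h, 3 higher and 4 lower, or 5%, against 5.73% of all probe sets (3.76% higher and 1.97% lower). In Raji it called 4 at 4 h, 1 higher and 3 lower, or 2.86%, against 1.78% of all probe sets (1.44% higher and 0.341% lower). The Raji count at 8 h was 4, all lower, or 2.86%, against 1.88% (0.827% higher and 1.05% lower). The median difference of the 140 genes was -0.07 and 0.11 in LP-1 at 4 and 8 h, beside -0.04 and 0.06 for all probe sets, and -0.04 and 0.00 in Raji, beside 0.01 and 0.00. When the arrays of each line were fitted alone, the calls kept were those of ITGB8 at 4 h and of CD48 and CEMIP2 at 8 h in LP-1, and those of GPR183 at 4 h and FERMT3 at 8 h in Raji, and the other calls below were lost.

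Among 14 other integrin subunits, ITGB8 was the only gene called in any of the 4 comparisons, with 0 called in Raji (2 at 4 h and 0 at 8 h had an unadjusted p under 0.05). Its product pairs with integrin alpha V and activates latent TGF-beta. In LP-1 at 4 h ITGB8 stood at 5.56 and 5.56 with the BET inhibitor, against 6.85 and 6.77 with the inactive enantiomer, a fall of 1.25 ± 0.14 (2.38-fold, limma adjusted p = 0.00105) that held in all 10 other settings. The fall at 8 h was 0.69 ± 0.14 (adjusted p = 0.0139), a call lost without the first BET inhibitor array (adjusted p = 0.114) or the second inactive enantiomer array (0.0993).

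Among 28 selectins and immunoglobulin-family molecules, 0 were called in LP-1 at 4 h (6 at an unadjusted p under 0.05), 2 at 8 h and 1 at each time in Raji. CD48, a lipid-anchored relative of SLAMF7 that binds CD244, fell in LP-1 at 8 h. It stood at 8.04 and 7.91 with the BET inhibitor, against 9.44 and 9.54 with the inactive enantiomer, a fall of 1.51 ± 0.19 (2.85-fold, limma adjusted p = 0.000703). That call held in all 10 other settings. In Raji CD48 fell by 1.06 ± 0.19 at 4 h and by 1.03 ± 0.19 at 8 h (adjusted p = 0.0147 and 0.0169).

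With 1 array fewer the Raji calls of CD48 were mostly lost: at 4 h without either BET inhibitor array or the second inactive enantiomer array, and at 8 h without any 1 of the 4 arrays (adjusted p 0.0533 to 0.109). The difference at 8 h was then still -1.07 to -0.98, while at 4 h it was -0.69 without the second inactive enantiomer array and -1.43 without the first. Every BET inhibitor array of CD48 in Raji was below every inactive enantiomer array at the same time. ICAM1, a ligand of LFA-1, fell in LP-1 at 8 h by 0.67 ± 0.16 (limma adjusted p = 0.0277), a call lost without the second BET inhibitor array or either inactive enantiomer array (adjusted p 0.0711 to 0.161). Its difference in Raji at 8 h was -0.61 ± 0.16 and did not pass (adjusted p = 0.0775).

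Among 18 genes of selectin ligand synthesis, which build the glycans that let PSGL-1 bind selectins, 1 was called. ST3GAL6, a sialyltransferase, fell in LP-1 at 4 h by 1.27 ± 0.22 (limma adjusted p = 0.0103), standing at 6.95 and 7.34 against 8.43 and 8.39. The call was lost without the first BET inhibitor array or either inactive enantiomer array (adjusted p 0.0906 to 0.0990). At 8 h limma called 0 of the 18 in LP-1, where SELPLG was at its lowest, with 6 at an unadjusted p under 0.05, and in Raji 0 at each time (5 and 2 at that p).

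Among 27 genes of integrin activation and tail binding, RASGRP3, an activator of Rap1 and Ras, fell in LP-1 at 4 h by 1.12 ± 0.22 (limma adjusted p = 0.0191). APBB1IP, the Rap1 effector that brings talin to integrins, fell at 8 h by 0.69 ± 0.18 (limma adjusted p = 0.0406). Its inactive enantiomer arrays at 8 h, at 7.50 and 7.73, were themselves below untreated LP-1 cells, at 8.50 and 8.42. VCL, vinculin, rose at 8 h by 0.66 ± 0.13 (limma adjusted p = 0.0135). In Raji its BET inhibitor arrays were also above the inactive enantiomer arrays at both times, without a call. Each of these LP-1 calls was lost without single arrays of its comparison: the first BET inhibitor or either inactive enantiomer array for RASGRP3, the second BET inhibitor or either inactive enantiomer array for APBB1IP, and the first array of each compound for VCL (adjusted p up to 0.191, 0.214 and 0.121).

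In Raji this list held 2 calls, at 8 h and beside the fall of ITGAL. FERMT3, or kindlin-3, binds integrin beta tails and is needed for leukocyte integrins to become active. It stood at 5.99 and 5.93 with the BET inhibitor, against 6.95 and 7.22 with the inactive enantiomer, a fall of 1.13 ± 0.16 (2.18-fold, limma adjusted p = 0.00554). The call was lost in 1 of 10 other settings, without the second inactive enantiomer array (adjusted p = 0.0551). PTK2B, a kinase of focal adhesion signalling, fell by 0.58 ± 0.13 (adjusted p = 0.0427), a call lost without any 1 of the 4 arrays (adjusted p 0.137 to 0.215). At 4 h limma called 0 of the 27 in Raji, with 7 at an unadjusted p under 0.05.

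Among 10 linkers of the membrane to actin, LCP1, the actin bundler L-plastin, was called in LP-1 at 4 h. It stood at 4.57 and 4.88 with the BET inhibitor, against 5.70 and 5.38 with the inactive enantiomer, lower by 0.82 ± 0.16 (limma adjusted p = 0.0191). Untreated LP-1 cells stood at 4.72 and 4.69, so it was the inactive enantiomer arrays that lay away from the 0 h level. These LP-1 levels were low beside untreated Raji, at 11.21 and 11.19. EZR, ezrin, which ties CD44 and PSGL-1 to actin, rose at 8 h by 0.68 ± 0.13 (adjusted p = 0.0118). Leaving out single arrays ended both calls: the first BET inhibitor or either inactive enantiomer array for LCP1 (adjusted p up to 0.210), and the second BET inhibitor or first inactive enantiomer array for EZR (up to 0.100). In Raji 0 of the 10 were called at each time, with 1 and 0 at an unadjusted p under 0.05.

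Among 12 genes around CD44 and hyaluronan, CEMIP2, a membrane protein described as a hyaluronidase of the cell surface, was called in LP-1 at both times. It stood at 6.81 and 7.33 with the BET inhibitor at 4 h, against 5.94 and 5.89 with the inactive enantiomer, and at 8.25 and 7.90 at 8 h, against 5.12 and 5.09. The rises were 1.16 ± 0.20 (2.23-fold, limma adjusted p = 0.0104) and 2.97 ± 0.20 (7.84-fold, adjusted p = 1.81e-05). Untreated LP-1 cells stood at 6.04 and 5.78, so at 8 h the inactive enantiomer arrays were below the 0 h level and the BET inhibitor arrays above it. The rise at 8 h held in all 10 other settings, and that at 4 h was lost without either inactive enantiomer array (adjusted p = 0.0871 and 0.100). CD44 itself stayed within 0.12 of its control at these times. In Raji 0 of the 12 were called at each time, with 1 and 2 at an unadjusted p under 0.05, and CEMIP2 differed by 0.53 ± 0.20 and 0.51 ± 0.20.

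Of 9 genes that share or serve the inhibitory tail motif of PECAM1, PTPN6 was called. It encodes the phosphatase SHP-1, which binds that motif, and fell in Raji at 8 h by 0.71 ± 0.12 (limma adjusted p = 0.0120). The call was lost without the first BET inhibitor array or either inactive enantiomer array (adjusted p 0.0521 to 0.0985). In LP-1, where PECAM1 was measured well above its Raji level, limma called 0 of the 9 at 4 and 8 h (2 and 5 at an unadjusted p under 0.05), and in Raji at 4 h 0 (2 at that p).

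Among 11 tetraspanins, which gather integrins in the membrane, TSPAN3 rose in Raji at 4 h by 0.59 ± 0.13 (limma adjusted p = 0.0375). The call was lost without any 1 of the 4 arrays (adjusted p 0.125 to 0.283), and also with quantile normalization (0.43, adjusted p = 0.0934) and with centring (0.55, adjusted p = 0.0642). Among 11 homing and egress receptors, limma called 2 in Raji at 4 h. GPR183, an oxysterol receptor that positions B cells, stood at 3.23 and 3.20 with the BET inhibitor, against 5.13 and 4.58 with the inactive enantiomer, a fall of 1.64 ± 0.24 (adjusted p = 0.00573). Its probe set was among the 7337 dimmest over all arrays, so it could be tried in only 9 other settings. S1PR1, the receptor that guides lymphocytes out of tissues, fell by 1.22 ± 0.26 (adjusted p = 0.0367), at low levels of 2.81 and 2.71 against 4.42 and 3.54.

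The call of GPR183 was lost without the second BET inhibitor or the first inactive enantiomer array (adjusted p = 0.0739 and 0.0522), and that of S1PR1 without either BET inhibitor array or the first inactive enantiomer array (adjusted p up to 0.259). The difference of S1PR1 was -0.78 without the first inactive enantiomer array and -1.66 without the second. Limma called 0 tetraspanins and 0 homing receptors in the other 3 comparisons, with 3 tetraspanins at an unadjusted p under 0.05 in each, and 1 receptor in LP-1 at 4 h and 3 at 8 h in each line.

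**Figure D4:**
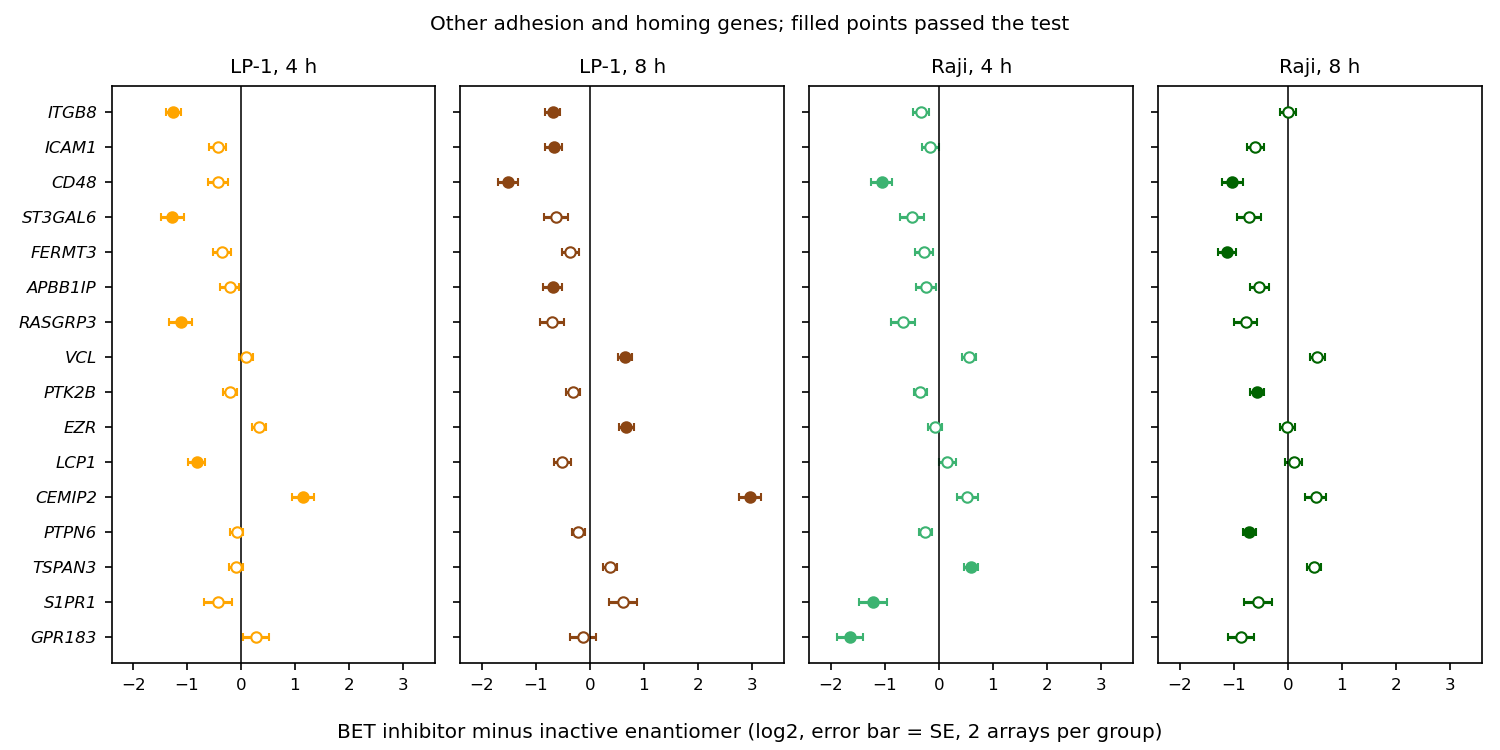
Log2 difference of BET inhibitor minus inactive enantiomer (horizontal axis, bars are standard errors, 2 arrays per group) for the 16 other adhesion and homing genes called in at least 1 comparison; filled points were called. CD48 is below 0 in all 4 panels and called in 3, and CEMIP2 in LP-1 at 8 h lies at 2.97, apart from the rest.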

How the data were processed

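Total RNA of LP-1 and Raji cells was measured on 20 Affymetrix exon arrays. The deposited log2 values per transcript-level probe set were made by RMA in Affymetrix Expression Console on build hg19, per the submitters' processing notes, with no versions given. They were used as deposited. Symbols came from the platform's table: of 22011 probe sets, 14432 had 1 symbol, 2408 several and 5171 none.

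limma 3.58.1 in R 4.3.3 (lmFit and eBayes) fitted each probe set on all 20 arrays, a mean for every group, which left 10 residual and 2.59 prior degrees of freedom. Tests of the 10 comparisons were two-sided, p-values were adjusted by the Benjamini-Hochberg method across the whole table, and calls were made at an adjusted p under 0.05. Intervals cover 95% and are not adjusted. The fit was tested on simulated data. The comparisons were BET inhibitor over inactive enantiomer and inactive enantiomer over untreated in each line at 4 and 8 h, the Raji response at 8 h minus that at 4 h, and untreated Raji over untreated LP-1. In LP-1, BET inhibitor over inactive enantiomer chose the members, so they carry no test there. The same holds for inactive enantiomer over untreated LP-1, which shares arrays with it, and for PECAM1 and SELPLG between the untreated lines.

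The members and gene lists were chosen with earlier results of these data known. Named genes are the members, up to 4 called genes with the smallest p per list and comparison, the 4 genes nearest to PECAM1 and to SELPLG, and MYC and HEXIM1. Other settings were leaving out the 7337 dimmest probe sets, quantile normalization, centring, an intensity trend, the arrays of a line alone, the replicate number as a block, and each array left out. Same-numbered arrays did not deviate together: over 9 comparisons the correlation of their deviations from the group means was -0.03 to 0.05. The replicate numbers were therefore not treated as pairs, although these correlations cannot show whether same-numbered cultures were handled together.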

Additional observations from a re-analysis of the deposited data

Results flagged for a closer look

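The difference of SELPLG between the compounds lay on opposite sides of 0 in the 2 lines, on every array. At 4 h the difference of BET inhibitor minus inactive enantiomer was 0.34 in Raji and -0.90 in LP-1, which lie 1.24 apart. At 8 h it was 0.54 in Raji and -1.65 in LP-1, which lie 2.19 apart. ITGAL at 4 h also lay on opposite sides of 0, at -0.40 in Raji and 0.13 in LP-1, a gap of -0.52. The LP-1 value was smaller than its standard error of 0.17. Its nearest arrays stood at 5.406 with the BET inhibitor and 5.405 with the inactive enantiomer. The Raji value did not pass (limma adjusted p = 0.304). These differences between the lines were not tested, since the LP-1 values of the genes chose the group, and SELPLG was near the low end of the array in Raji.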

How the results depend on the processing

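With the replicate number as a block, limma called 501 and 1232 probe sets for BET inhibitor over inactive enantiomer in LP-1 at 4 and 8 h, against 502 and 1262 without it, and 378 and 398 in Raji, against 391 and 414. The block moved the call of SELPLG in Raji at 8 h past the threshold (adjusted p = 0.0323) and the count for inactive enantiomer over untreated LP-1 at 4 h to 0, against 3. That count was 1 without the dimmest probe sets, 1 with quantile normalization and 1 with the line alone. At 8 h it was 111 as reported, 19 with quantile normalization, 34 with centring and 1 with the line alone. With the arrays of the line alone the BET inhibitor counts were 76 and 347 in LP-1 and 49 and 90 in Raji, from a fit with fewer arrays. Quantile normalization gave 5 calls for the difference of times in Raji, against 0.

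Leaving out each array in turn gave 64 to 971 and 485 to 985 calls in LP-1, 27 to 154 and 100 to 145 in Raji, 0 to 2 for the difference of times, 0 to 0 and 9 to 24 for inactive enantiomer over untreated LP-1, 0 to 0 and 0 to 1 for the same in Raji, and 3955 to 4199 between the untreated lines. The share of called probe sets that were higher was 16.5% in LP-1 at 4 h, 26.4% with centring and 33% with quantile normalization, and 65.6%, 49.9% and 53.9% at 8 h. In Raji at 4 h it was 80.8%, 73.2% and 61.2%, for inactive enantiomer over untreated LP-1 at 8 h 9.01%, 29.4% and 31.6%, and between the untreated lines 28%, 41.2% and 45.8%.

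PECAM1 in LP-1 at 4 h was 0.0006 without the first BET inhibitor array and -0.704 without the second, against -0.35. Counts of other adhesion genes ranged from 1 to 7 and 3 to 7 in LP-1 and from 0 to 3 and 0 to 2 in Raji without single arrays. They were 8, 12, 4 and 8 without the dimmest probe sets, and 14 in LP-1 at 8 h with quantile normalization. Of 1063 values of single genes and of adhesion gene counts under other settings, 955 were labelled the same. Of the rest, 64 lost a call, 2 gained one, 41 moved and 1 reversed. A tested value was the same if it stayed on its side of the threshold, even where its sign changed with no call in either setting. PECAM1 in Raji at 8 h, for instance, ran from -0.51 to 0.28. Such sign changes are not in the 1 reversed. An untested value was the same if it moved by less than the replicate spread, and a count if it changed little. The causes were not tested. The mean over several probe sets per gene gave no value, because each member had 1.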

Other observations

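Of the 9 lists of other adhesion and homing genes, the inhibitory-motif partners of PECAM1 had the highest median difference in LP-1 at 8 h. It was 0.33 with the BET inhibitor, beside 0.06 for all probe sets, with 0 of 9 called, against 5.73% of all probe sets. The homing and egress receptors had the lowest median in Raji at 4 h, -0.21 beside 0.01. Limma called 2 of 11, both lower, against 1.78% of all probe sets (0.341% lower), and both calls were lost without single arrays. Genes of selectin ligand synthesis had a median of -0.11 at 4 h and 0.18 at 8 h in LP-1. These medians are descriptions of the lists and no test was made of them.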
